A study of Homo sapiens with 24 samples.

Results

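In cells that received a synthetic guide RNA, HMGCS1, an early enzyme of cholesterol synthesis, stood at 80.7 to 129 CPM (the usual depth-scaled unit, a count divided by the total count of its library and multiplied by the same constant for every library), against 13.4 to 86.5 CPM in cells of 3 plasmid setups. That difference was called in 0 of 6 comparisons by the test as designed and in 5 of 6 once a trend with GC content was removed from each library. Over all genes, these comparisons called 1.32 to 3.25% before the removal and 4.91 to 8.55% after it. Only the calls for the pre-gRNA setup held in every fit that left out 1 library. After the removal HMGCS1 still ran with the GC trend of the library (Pearson r -0.62). The genes described are 8 genes of cholesterol synthesis and its control: HMGCS1, IDI1, FDFT1, SQLE, LSS, DHCR7, INSIG1 and SREBF2. They were listed by symbol, and all 8 were found among the 60658 genes counted in each library. None of the 8 passed the test for a change on knockdown in any setup. HMGCS1 differed by up to 6.46-fold between libraries of 1 group. In the plasmid setups DHCR7 was high in the libraries in which HMGCS1 was low, but not within syn-gRNA (Pearson r 0.40). Both genes also ran with the GC trend of the library, in opposite directions (r -0.92 for HMGCS1 and 0.91 for DHCR7).

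Poly(A) RNA was sequenced from human cells labelled SH-SY5Y, a neuroblastoma line, harvested 48 h after transfection. The knockdown (KD) arm was aimed at the circular RNA ciRS-7, also called CDR1as, and each of 4 setups had a non-targeting control (NTC) arm of its own. The agoshRNA vectors encode hairpins that Argonaute itself processes. For gRNA and pre-gRNA, cells got a plasmid of the RNA-cutting enzyme CasRx, joined to GFP, and another that expressed the guide or its precursor. For syn-gRNA the series title says only that guides were made by chemical synthesis. Each of the 8 groups held 3 libraries, named A, B and C in the deposited tables, and nothing links these letters to the replicate numbers of the labels or says that the libraries came from separate cultures, so that p-values measure only the spread between these libraries. Lipofectamine 3000 carried the plasmids, and the labels do not describe how the synthetic guide was delivered or how CasRx was supplied with it. No untransfected cells were analysed here, so the data hold no comparison of transfected with untransfected cells for these genes. The setups differ in the nucleic acids, vectors and reagents given, and these cannot be told apart.

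Total counts ran from 10994974 to 16233777 per library and mitochondrial genes took 3.36 to 5.13% of them. The labelled cell type was checked against marker lists. Among 12 noradrenergic neuroblastoma markers, means under 1 CPM were found for 7, including DBH and TH, enzymes of noradrenaline synthesis, 3 were over 10 CPM, and the summed level of the list was 53.5 to 111 CPM. Of 6 markers of the mesenchymal state of neuroblastoma cells, 4 had a mean over 10 CPM and CD44 was under 1 CPM, with a sum of 817 to 1202 CPM. Of 5 markers of the kidney lineage of HEK293 cells, 4 had a mean over 10 CPM, PAX8 was under 1 CPM, and the sum of the list was 126 to 327 CPM. Most of the noradrenergic list was thus near 0, with 7 of 12 markers under 1 CPM and 3 over 10 CPM. The 7 were DBH, TH, DDC, PHOX2A, STMN2, ELAVL4 and CHGB. The median of the markers' means was 0.25 CPM for the noradrenergic, 27.3 CPM for the mesenchymal and 43.6 CPM for the kidney-lineage list. The cell type behind these lists was not tested further. The targeted circle lacks a poly(A) tail and was not measured. Linear transcripts of its locus were low in both arms, with LINC00632 at 31 to 132 counts in NTC and 16 to 101 counts in KD libraries.

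Cells make cholesterol from acetyl-CoA in a long chain of enzymes in the cytosol and the endoplasmic reticulum. When sterols in the endoplasmic reticulum membrane are scarce, the escort protein SCAP carries the factor SREBP2, the product of SREBF2, to the Golgi, where it is cut; the freed part enters the nucleus, binds sterol response elements and switches the enzyme genes on together. INSIG1 holds SCAP back when sterols are plentiful, and it is itself a target of SREBP2. The system is known to act on the whole chain, so that its genes usually rise and fall as a group.

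Promoter windows, the 250 bases before an annotated start, were read from RefSeq (build GRCh38.p14), which held 10 windows for 6 of the 8 genes. SREBF2 is shown because its window alone among the members' windows held an exact match to TCACNCCAC, a form of the sterol response element, on either strand; INSIG1 is shown as its negative regulator, and HMGCS1 and LSS as genes whose transcripts are of low and high GC content, 40.2% and 58.3% of bases. Capitals mark the match and each CCAAT box, the site of the partner factor NF-Y, which appears as ATTGG where it lies on the other strand; the motifs do not overlap. All are written 5′ to 3′ in the direction of the gene, and positions count back from −1, the base before the start.
SREBF2 (chr22:41832855-41833104, plus strand): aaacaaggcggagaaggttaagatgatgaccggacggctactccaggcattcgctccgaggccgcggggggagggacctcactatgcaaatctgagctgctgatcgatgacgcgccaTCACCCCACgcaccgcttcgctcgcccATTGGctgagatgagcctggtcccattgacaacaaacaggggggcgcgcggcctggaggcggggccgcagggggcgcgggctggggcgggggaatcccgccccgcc
INSIG1 (chr7:155297628-155297877, plus strand): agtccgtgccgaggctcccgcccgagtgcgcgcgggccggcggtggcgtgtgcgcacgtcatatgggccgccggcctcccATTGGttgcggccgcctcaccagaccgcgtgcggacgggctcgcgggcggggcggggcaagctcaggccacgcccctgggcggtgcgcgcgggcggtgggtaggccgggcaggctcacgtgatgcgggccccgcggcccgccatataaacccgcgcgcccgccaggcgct
HMGCS1 (chr5:43313413-43313662, minus strand): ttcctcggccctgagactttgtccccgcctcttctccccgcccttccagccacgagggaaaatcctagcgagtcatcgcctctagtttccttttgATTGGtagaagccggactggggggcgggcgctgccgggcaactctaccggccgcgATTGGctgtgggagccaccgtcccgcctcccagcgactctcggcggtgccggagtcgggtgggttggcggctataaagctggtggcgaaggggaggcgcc
LSS (chr21:46228775-46229024, minus strand): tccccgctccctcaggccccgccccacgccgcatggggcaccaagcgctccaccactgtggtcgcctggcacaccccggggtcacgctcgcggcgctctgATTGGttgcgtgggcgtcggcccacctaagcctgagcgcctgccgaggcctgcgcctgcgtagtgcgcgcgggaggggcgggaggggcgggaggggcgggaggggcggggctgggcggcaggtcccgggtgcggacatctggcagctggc

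The SREBF2 match began at −133 on the plus strand. Of 35116 windows of all genes, 0.883% held TCACNCCAC, and these exact letters miss other forms of the sterol response element. CCAAT was in 7 of the 10 member windows and in at least one window of each of the 6 genes, against 32.0% of all windows. Of 15 other sterol enzymes, 12 had windows, of which 0 held TCACNCCAC and 9 genes had CCAAT. Binding and chromatin were not measured, and the matches are a description of the letters only.

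HMGCS1 (chr5:43289497-43313614 in hg19, minus strand) encodes the cytosolic enzyme that joins acetyl-CoA and acetoacetyl-CoA to HMG-CoA, an early step of the chain. In syn-gRNA it stood at 126, 105 and 88.5 CPM in NTC libraries A, B and C, and at 129, 80.7 and 90.7 CPM in KD libraries A, B and C. In agoshRNA it stood at 20.1, 76.3 and 57.3 CPM in NTC and at 13.4, 86.5 and 44.9 CPM in KD. In gRNA it stood at 35.5, 60.6 and 77.5 CPM in NTC and at 20.6, 74.8 and 76.7 CPM in KD. Library A was the lowest in both of these setups and the highest in syn-gRNA, in either arm. In pre-gRNA HMGCS1 stood at 33.2, 17.8 and 62.9 CPM in NTC and at 48.4, 15.0 and 70.6 CPM in KD, so that library B was lowest there. In the NTC arm every syn-gRNA library lay above every library of the other setups. In the KD arm the syn-gRNA values overlapped with agoshRNA, through its library B, and with no other setup.

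IDI1 (chr10:1085092-1095110, minus strand), which interconverts the activated isoprene units that build longer chains, ranged from 32.6 to 109 CPM. Its means over the 6 libraries of both arms were 62.9 ± 23.5 CPM (SD, n = 6) in agoshRNA, 76.9 ± 24.9 in gRNA, 70.8 ± 22.8 in pre-gRNA and 64.6 ± 17.7 in syn-gRNA. These means differed by less than the SD of any setup. In gRNA, library C was the highest in both arms, at 109 CPM in NTC and 106.5 CPM in KD.

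FDFT1 (chr8:11653082-11696818, plus strand), squalene synthase, makes the first compound committed to sterols. In CPM it varied least of the 8 genes, with a ratio of 1.80 between the highest and the lowest of the 24 libraries, 225 and 125 CPM. With the GC trend removed its range was 2.57-fold, the widest of the 8 genes after HMGCS1 at 3.11-fold. Its means were 157 ± 26.3 CPM (SD, n = 6) in agoshRNA, 176 ± 33.8 in gRNA, 178 ± 40.2 in pre-gRNA and 169 ± 15.2 in syn-gRNA, and the setups overlapped.

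SQLE (chr8:126010739-126034525, plus strand), squalene epoxidase, catalyses the first step that needs oxygen and is a control point of the chain. In gRNA it stood at 160.4, 135 and 124 CPM in NTC libraries A, B and C and at 79.1, 144 and 122 CPM in KD libraries. In pre-gRNA it stood at 114, 64.1 and 117 CPM in NTC and at 152, 72.1 and 109 CPM in KD. In gRNA, library A was thus the highest of the NTC arm and the lowest of the KD arm, and in pre-gRNA library B was lowest in both arms. In agoshRNA SQLE stood at 117, 132 and 95.8 CPM in NTC and at 93.7, 127 and 76.3 CPM in KD. In syn-gRNA it stood at 166, 129.5 and 107 CPM in NTC and at 159, 116 and 115 CPM in KD. In the NTC arm the gRNA libraries, at 124 to 160.4 CPM, lay above the pre-gRNA libraries, at 64.1 to 117 CPM. All other pairs of setups overlapped in both arms. The share of all genes without overlap was not counted for gRNA against pre-gRNA, so no difference in SQLE is read from it. DESeq2 called 0.0% of genes for that pair in NTC.

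LSS (chr21:47608055-47648738, minus strand), lanosterol synthase, closes the sterol ring system, and DHCR7 (chr11:71139239-71163914, minus strand) reduces 7-dehydrocholesterol to cholesterol in the last step of one branch. LSS spanned 36.6 to 41.7 CPM in the 6 syn-gRNA libraries and 27.5 to 70.1 CPM in agoshRNA, where library A was at 59.7 CPM in NTC and 70.1 CPM in KD and the other 4 libraries were at 27.5 to 30.5 CPM. DHCR7 stood in syn-gRNA at 71.9, 63.9 and 59.0 CPM in NTC and at 62.7, 67.15 and 57.6 CPM in KD. In pre-gRNA it stood at 109.7, 147 and 79.8 CPM in NTC and at 103.5, 147 and 67.2 CPM in KD. Library B was here the highest in both arms, the same library in which HMGCS1 was lowest. In gRNA DHCR7 stood at 109, 84.3 and 72.15 CPM in NTC and at 151, 80.55 and 77.3 CPM in KD. In agoshRNA it stood at 105, 65.4 and 75.2 CPM in NTC and at 125, 53.3 and 94.3 CPM in KD. The syn-gRNA values lay below every gRNA and pre-gRNA library of the same arm and overlapped with agoshRNA.

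INSIG1 (chr7:155089486-155101945, plus strand) encodes the membrane protein that retains SCAP. In gRNA it stood at 207, 166 and 142 CPM in NTC libraries A, B and C and at 113, 192.5 and 150.3 CPM in KD libraries. In pre-gRNA it stood at 156, 98.8 and 146 CPM in NTC and at 197.6, 103 and 135 CPM in KD. As for SQLE, gRNA library A was the highest of NTC and the lowest of KD. Its agoshRNA and syn-gRNA means were 129.6 ± 21.6 and 156.5 ± 30.8 CPM (SD, n = 6). SREBF2 (chr22:42229083-42303312, plus strand), the gene of SREBP2 itself, ranged from 146.5 to 355 CPM, with 345 and 355 CPM in the NTC and KD libraries B of pre-gRNA. Its means were 258 ± 67.4 CPM in agoshRNA, 243.5 ± 27.0 in gRNA, 262 ± 69.4 in pre-gRNA and 186 ± 29.2 in syn-gRNA (SD, n = 6).

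Per kilobase of annotated exon, INSIG1 was the most abundant of the 8 genes, with a mean of 40.2 CPM per kb over the 24 libraries. FDFT1 and SREBF2 followed at 32.6 and 31.4 CPM per kb, SQLE at 27.4 and DHCR7 at 21.3 CPM per kb. IDI1 at 15.8, HMGCS1 at 13.4 and LSS at 6.27 CPM per kb were lowest. Neighbours in this order overlapped: HMGCS1 ranged from 2.85 to 27.4 CPM per kb and LSS from 3.80 to 9.68 CPM per kb. Every gene had at least 184 counts in every library. The libraries were not stranded, and genes on the opposite strand overlapped 6 of the 8 members. Of these RP11-660L16.2, across DHCR7, at 20.3 CPM, CTD-2636A23.2, across HMGCS1, at 16.3 CPM, and RP5-821D11.7, across SREBF2, at 15.2 CPM were the most abundant. Reads of the overlaps cannot be told apart by strand.

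Knockdown was compared with its own control in each setup, the comparison the study's design was built on. None of the 8 genes passed an adjusted p of 0.05 in DESeq2 (0 of 32 gene-by-setup tests), and 0 of 32 had an unadjusted p under 0.05 in DESeq2 or in edgeR. Over all genes DESeq2 called 0 of 17802 in agoshRNA, 0 of 18371 in gRNA, 0 of 18717 in pre-gRNA and 0 of 18513 in syn-gRNA, a share of 0.0% each. At an unadjusted p under 0.05 DESeq2 gave 0, 17, 2 and 55 genes in that order, and edgeR, which called 0 in each, gave 3, 34, 11 and 176. The most negative member value was that of INSIG1 in agoshRNA, a log2 fold change of -0.24 (SE 0.38), and the most positive that of DHCR7 in gRNA, 0.35 (SE 0.41). HMGCS1 had log2 fold changes of -0.04 (SE 0.80) in agoshRNA, 0.04 (SE 0.52) in gRNA, 0.19 (SE 0.57) in pre-gRNA and -0.10 (SE 0.18) in syn-gRNA. In this fit the 95% interval of HMGCS1 ran from -1.61 to 1.52 in agoshRNA and from -0.44 to 0.25 in syn-gRNA.

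With the column letter as a replicate block, DESeq2 again called none of the 8 genes, and 0 of 32 had an unadjusted p under 0.05. The standard error of HMGCS1 was then 0.20 in agoshRNA, 0.21 in gRNA, 0.15 in pre-gRNA and 0.11 in syn-gRNA, with log2 fold changes of -0.20, -0.06, 0.14 and -0.11. Its 95% interval with the block ran from -0.59 to 0.18 in agoshRNA and from -0.33 to 0.11 in syn-gRNA. Over all genes the block gave 105, 113, 1011 and 241 genes at an unadjusted p under 0.05 and 0, 0, 0 and 1 called, in the order agoshRNA, gRNA, pre-gRNA, syn-gRNA.

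The median log2 fold change of the 8 genes was 0.02 in agoshRNA, 0.17 in gRNA, -0.01 in pre-gRNA and -0.06 in syn-gRNA, beside medians over all genes of 0.06, 0.02, 0.01 and 0.00. In syn-gRNA 7 of the 8 genes had a negative estimate, none beyond -0.10. The authors' deposited table lists INSIG1 in agoshRNA at -0.236 on the log2 scale, with an adjusted p of 1.0. The difference of the knockdown effect between setups was tested as an interaction for the 6 pairs of setups. DESeq2 called 0 of 20172 genes in every pair (0.0%), and 0 of 48 tests on the 8 genes had an unadjusted p under 0.05. With the block 1 of 48 did, SREBF2 for gRNA minus pre-gRNA, with a log2 difference of 0.37 (SE 0.19, DESeq2 adjusted p = 0.527).

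**Figure D1:**
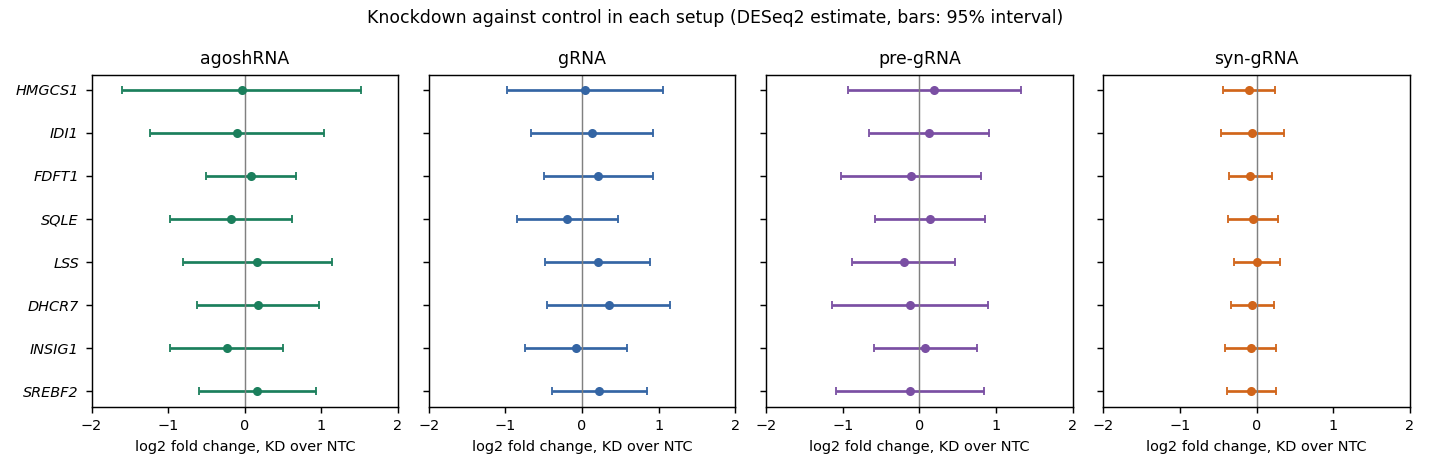
Log2 fold change of KD over NTC (horizontal axis) for the 8 genes (vertical axis) in each setup; points are DESeq2 estimates and bars 95% intervals. Every interval includes 0, and the bars are narrowest in syn-gRNA, where HMGCS1 spans -0.44 to 0.25.

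Libraries of the same group differed widely. Over the 24 libraries HMGCS1 had a ratio of 9.61 between its highest and lowest CPM, IDI1 3.35, DHCR7 2.83, SQLE 2.59, LSS 2.55, SREBF2 2.42, INSIG1 2.10 and FDFT1 1.80, beside a median ratio of 3.03 over the 10923 genes at a mean level of 10 CPM or more. HMGCS1 stood near the top of these genes: 95.3% of them had a smaller SD of log2 CPM over the libraries. Within groups, the median SD of log2 CPM of HMGCS1 was 0.95, and it was 1.17 in agoshRNA, 0.82 in gRNA, 1.02 in pre-gRNA and 0.30 in syn-gRNA. LSS, DHCR7, FDFT1, SQLE and IDI1 were likewise tightest in syn-gRNA, at 0.08, 0.13, 0.14, 0.29 and 0.42. INSIG1 was tightest in agoshRNA, at 0.20, and SREBF2 in gRNA, at 0.165. With the GC trend removed, SQLE was tightest in pre-gRNA, at 0.15, and IDI1 in agoshRNA, at 0.12. These differences in spread between setups were not tested.

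Libraries with the same setup and letter deviated together in both arms. The deviation of a KD library from its group mean was set beside that of its same-letter NTC counterpart, over 12 such pairs. Pearson's r was 0.96 for LSS, 0.95 for HMGCS1, 0.94 for FDFT1, 0.93 for DHCR7, 0.92 for SREBF2 and 0.92 for IDI1, and lower for SQLE, 0.59, and INSIG1, 0.52. The 2 lower values go with gRNA library A, in which the KD library was below the NTC library by 1.02 on the log2 scale for SQLE and by 0.87 for INSIG1. The deviations of a group sum to 0, so the points are not independent and no p is given. What the letters stand for is not given in the sources used here.

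The setups were then compared within each arm, in 1 DESeq2 model of all 24 libraries with 20172 genes tested. None of the 8 genes was called in any of the 12 comparisons. In the NTC arm DESeq2 called 1.84% of genes for agoshRNA against syn-gRNA, 1.32% for gRNA against syn-gRNA and 3.25% for pre-gRNA against syn-gRNA, and in the KD arm 3.14%, 1.58% and 2.52%. Between the other setups few genes were called: agoshRNA against gRNA gave 0.0496% in NTC and 0.0446% in KD, agoshRNA against pre-gRNA 0.0347% and 0.0446%, and gRNA against pre-gRNA 0.0% in both. An unadjusted p under 0.05 was reached in the NTC arm in 2 of 48 tests on the members, HMGCS1 and DHCR7 for pre-gRNA against syn-gRNA, and in the KD arm in 1 of 48, HMGCS1 for the same pair. In edgeR the numbers were 2 and 0.

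HMGCS1 had the largest estimates of the 8 genes. Against syn-gRNA it differed on the log2 scale by -1.01 (SE 0.62, DESeq2 adjusted p = 0.561) in agoshRNA, by -1.01 (SE 0.62, adjusted p = 0.57) in gRNA and by -1.57 (SE 0.62, adjusted p = 0.14) in pre-gRNA in the NTC arm. In the KD arm the DESeq2 differences were -0.98 (adjusted p = 0.483), -0.88 (adjusted p = 0.582) and -1.30 (adjusted p = 0.295). DHCR7 had the opposite sign, with differences of 0.82 (SE 0.40, DESeq2 adjusted p = 0.247) for pre-gRNA in NTC and 0.75 (SE 0.40, adjusted p = 0.365) in KD. FDFT1, IDI1 and INSIG1 stayed within -0.35 to 0.23 in these 6 comparisons. The median over the 8 genes lay between -0.12 and 0.17, beside -0.01 to 0.06 over all genes.

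The values of 2 groups of 3 libraries often did not overlap for genes in general: in NTC, 18.9% of all genes did not overlap between agoshRNA and syn-gRNA, 29.8% between gRNA and syn-gRNA and 29.0% between pre-gRNA and syn-gRNA, and in KD 15.6%, 25.9% and 25.9%. Of the 8 members, 1 did not overlap for agoshRNA in NTC and 0 in KD, and 3 for each of the other pairs. HMGCS1 was the member below syn-gRNA in each of the 5 pairs with any. DHCR7 lay above syn-gRNA in both arms of gRNA and pre-gRNA, by as little as 67.16 against 67.15 CPM for pre-gRNA in KD. LSS lay above it in gRNA NTC and in both arms of pre-gRNA, and SREBF2 in gRNA KD. A count of 3 of 8 is near the share over all genes.

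**Figure D2:**
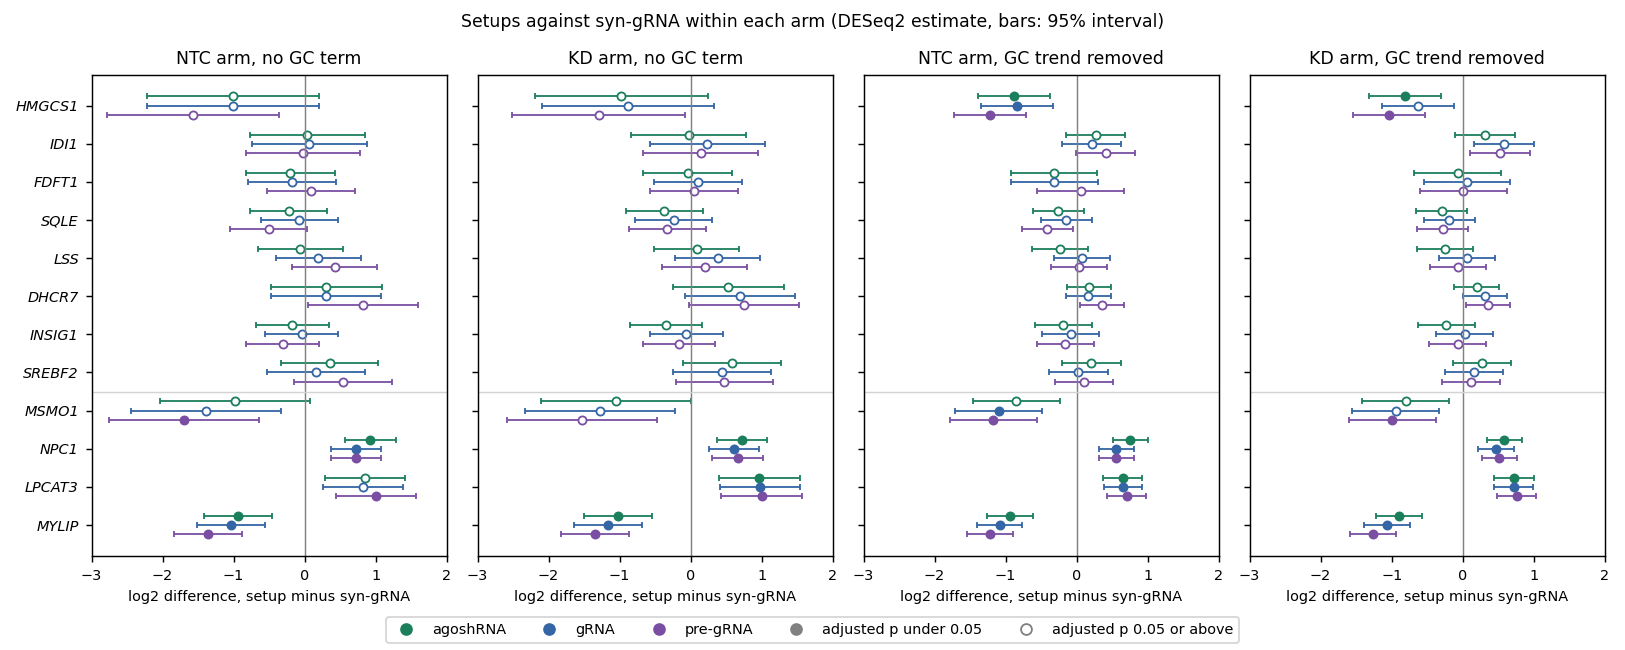
Log2 difference of each plasmid setup minus syn-gRNA (horizontal axis) for the 8 genes and 4 further sterol genes (vertical axis, below the grey line), by arm, without and with the GC trend removed; points are DESeq2 estimates, bars 95% intervals, and filled points have an adjusted p under 0.05. HMGCS1 lies at -1.57 for pre-gRNA in NTC without the GC term, unfilled, and at -1.22 with it, filled.

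Libraries differed in how gene levels ran with GC content, and the members took part in this. For each library a line was fitted, across genes, to log2 CPM relative to the mean of all libraries against the GC content of the gene's longest transcript; its slope, per 10 percentage points of GC, ran from -0.61 to 0.82 on the log2 scale. The 6 syn-gRNA libraries had slopes of -0.32 to -0.10. The highest slopes were those of agoshRNA KD A at 0.82, pre-gRNA KD B at 0.70, pre-gRNA NTC B at 0.68 and gRNA KD A at 0.66. These are the libraries in which HMGCS1 was at 13.4, 15.0, 17.8 and 20.6 CPM. Across the 24 libraries the level of HMGCS1 (GC 40.2%) had a Pearson r of -0.92 with the slope (Spearman rho -0.81, r -0.89 without the 2 libraries farthest from the median slope), and IDI1 (41.1%) an r of -0.81. DHCR7 (58.3%) had an r of 0.91 (rho 0.85, 0.90 without those 2), SREBF2 (57.1%) 0.81, FDFT1 (48.6%) 0.79 and LSS (58.3%) 0.61. SQLE (46.5%) and INSIG1 (46.0%) had the weakest relations, -0.59 and -0.49, and INSIG1 was at -0.32 without the 2 farthest libraries. The libraries share letters and each gene enters the slope itself, so no p is given, and the part of the GC trend in the setup differences was not tested beyond the fit that follows.

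**Figure D3:**
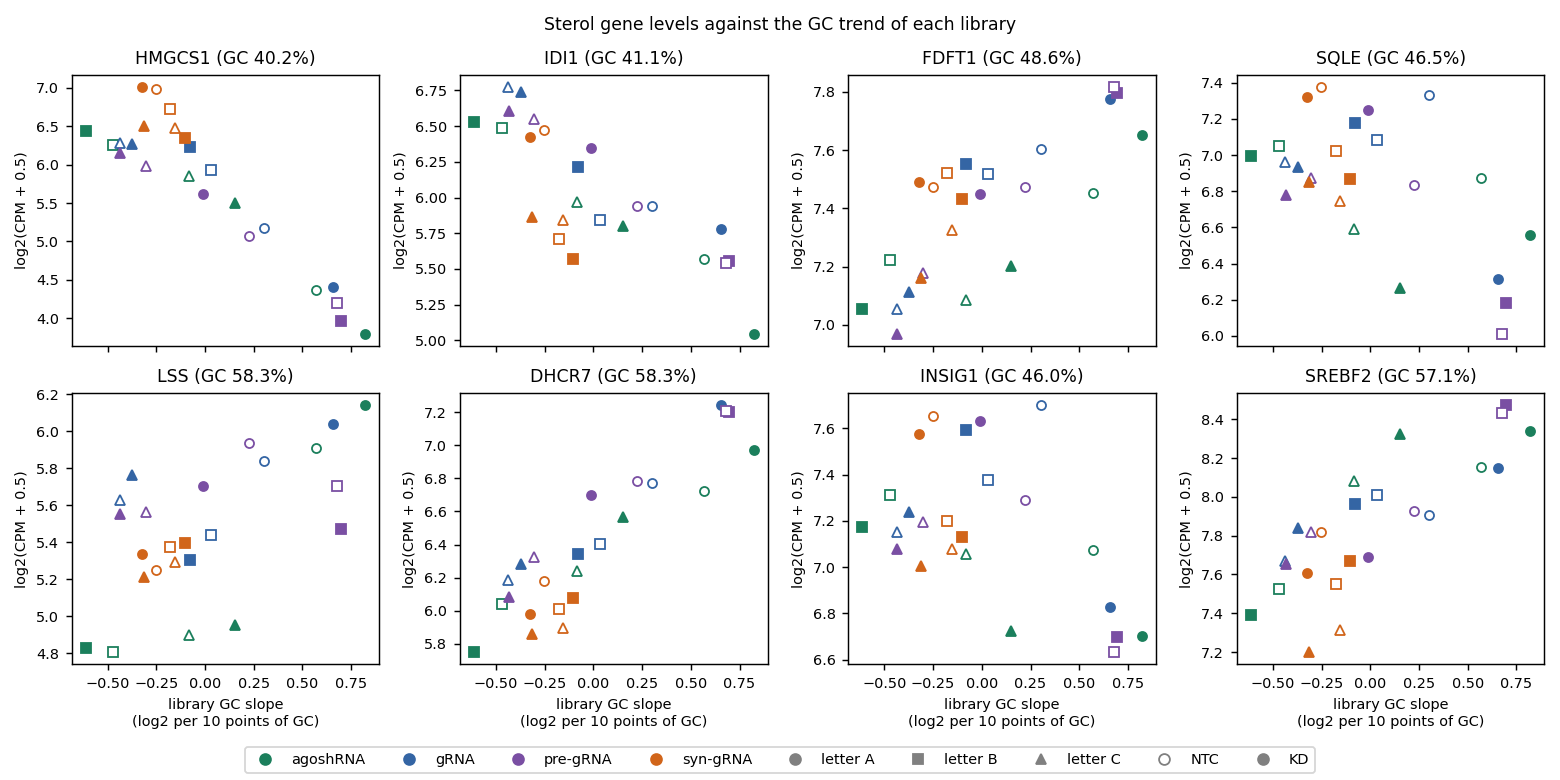
Level of each gene as log2(CPM + 0.5) (vertical axis) against the GC slope of the library in log2 units per 10 points of GC (horizontal axis) for 24 libraries; color is the setup, shape the column letter, open symbols NTC and filled symbols KD. HMGCS1 runs down with the slope (r -0.92) and DHCR7 up (r 0.91), and the syn-gRNA libraries cluster at slopes of -0.32 to -0.10.

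When the GC trend of each library was removed, by a smooth curve through all genes, HMGCS1 was below syn-gRNA in all 6 comparisons. DESeq2 called this difference in 5 of the 6. In the NTC arm the log2 differences were -0.88 (SE 0.26, adjusted p = 0.0185) for agoshRNA, -0.84 (SE 0.26, adjusted p = 0.0305) for gRNA and -1.22 (SE 0.26, adjusted p = 0.000306) for pre-gRNA. In the KD arm they were -0.81 (SE 0.26, DESeq2 adjusted p = 0.0287) for agoshRNA, -0.63 (SE 0.26, adjusted p = 0.143) for gRNA and -1.04 (SE 0.26, adjusted p = 0.00306) for pre-gRNA. The shares of all genes called in this fit were 7.05%, 5.64% and 8.55% in NTC and 8.09%, 4.91% and 7.61% in KD. The other 7 members were not called in it. The within-group SD of HMGCS1 was 0.25 after removal against 0.95 before, and its r with the slope was still -0.62.

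The pre-gRNA calls of HMGCS1 held in 12 of 12 fits that left out 1 library in each arm, with adjusted p up to 0.0106 in NTC and 0.0319 in KD by DESeq2. The 12 fits include those without a library of a setup outside the pair, which hardly moved the estimate. For gRNA in NTC it was then -0.8375 to -0.8349. The agoshRNA calls held in 8 of 12 fits in either arm. Of the fits without a library of the pair, they held only without agoshRNA B or C. In KD they were lost without agoshRNA A (DESeq2 adjusted p = 0.204) or syn-gRNA A (0.138), B (0.085) or C (0.0635), and in NTC without agoshRNA A (0.155) or syn-gRNA A (0.0597), B (0.116) or C (0.0525). The gRNA call in NTC held in 7 of 12 and was lost without gRNA A (adjusted p = 0.211) or C (0.138) or without syn-gRNA A (0.0769), B (0.183) or C (0.0959). Of the fits without a library of the pair, this call held only without gRNA B (DESeq2 adjusted p = 0.0203).

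The members did not run together as one group. SQLE and INSIG1 were the closest pair, with a Pearson r of 0.94 over 24 libraries (Spearman rho 0.94, r 0.93 without the 2 libraries farthest from the median) and 0.89, 0.95, 0.98 and 0.97 within agoshRNA, gRNA, pre-gRNA and syn-gRNA, each over 6 libraries. With the GC trend removed their r was 0.76. Among 10922 genes at a mean level of 10 CPM or more, each was the other's first-ranked partner, a pair singled out after the values were seen. HMGCS1 and DHCR7 ran oppositely, with an r of -0.92 (rho -0.91, r -0.91 without the 2 farthest), and -0.95, -0.99 and -0.96 within agoshRNA, gRNA and pre-gRNA but 0.40 within syn-gRNA. With the GC trend removed the r of HMGCS1 and DHCR7 was -0.60. SREBF2 had an r of 0.85 with DHCR7 and -0.80 with HMGCS1, which became 0.41 and 0.02 with the GC trend removed. HMGCS1 and IDI1, at 0.65, changed sign to -0.65, and IDI1 and DHCR7 went from -0.53 to 0.85. After removal the levels still ran with the library slope, at an r of -0.62 for HMGCS1, 0.58 for IDI1 and 0.60 for DHCR7. The r values with the GC trend removed are thus not free of that trend, and its part in them was not tested. The points share letters, libraries and GC trend, and no p is given.

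The 5 non-member genes whose levels were most like the mean standardised level of the 8 genes, by Pearson r over 24 libraries, were RPP38 (0.82), RNF214 (0.80), RBM22 (0.79), BCOR (0.76) and POLE3 (0.75). The members themselves had an r of -0.01 (HMGCS1) to 0.70 (INSIG1) with that mean, so it stands for none of them closely. MSMO1, a later sterol demethylase, had an r of 0.94 with HMGCS1, rank 469 among the genes compared, and was singled out after the values were seen.

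Other genes of the pathway were called in the comparisons of plasmid setups with syn-gRNA. Of 15 other sterol enzymes 1 was called in any of the 12 comparisons within arms, of 9 genes of SREBP control and sterol transport 1, of 8 fatty acid synthesis genes 0, and of 6 genes of sterol efflux and the LXR factors 2. Over all genes tested, 5.58% were called in at least 1 of those 12 comparisons. With the GC trend removed, that share was 16.0%, and the lists held 2 called genes (CYP51A1 and MSMO1), 3 (INSIG2, NPC1 and SCAP), 2 (ACSS2 and FADS2) and 3 (ABCG1, LPCAT3 and MYLIP) in that order. MSMO1 was higher in syn-gRNA, at 85.2 to 109 CPM against 13.6 to 83.8 CPM in the plasmid setups, and was called for pre-gRNA in NTC, with a log2 difference of -1.70 (SE 0.54, DESeq2 adjusted p = 0.0493). That call was lost in 10 of 12 fits without 1 library, reaching an adjusted p of 0.256 without syn-gRNA NTC B.

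NPC1, which exports cholesterol from lysosomes, was lower in syn-gRNA in all 6 comparisons, at 32.6 to 42.7 CPM against 46.9 to 86.4 CPM, with log2 differences of 0.61 to 0.93 (DESeq2). MYLIP, an LXR target whose product marks lipoprotein receptors for breakdown, was higher in syn-gRNA in all 6, at 26.8 to 34.8 CPM against 8.30 to 19.3 CPM, with differences of -1.36 to -0.94. LPCAT3, a membrane phospholipid enzyme and LXR target, was lower in syn-gRNA, at 18.4 to 23.4 CPM against 26.5 to 58.2 CPM, with DESeq2 calls in 4 of 6 comparisons and differences of 0.97 to 1.00 there. These LXR targets thus moved in opposite directions. Without 1 library, calls were lost in 26 of 72 fits for NPC1 (adjusted p up to 0.403, without gRNA KD A), 12 of 72 for MYLIP (up to 0.172, without syn-gRNA NTC B) and 23 of 48 for LPCAT3 (up to 0.702, without gRNA KD A). The totals of 72 and 48 include fits without a library of a setup outside the pair. In edgeR, of these calls only MYLIP for pre-gRNA held, in both arms (adjusted p = 0.0214 in NTC and 0.0167 in KD).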

How the data were processed

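Poly(A) RNA was sequenced as non-stranded paired reads of 100 nt, per the labels' protocols. The submitters' processing notes name Trim Galore, STAR 2.7.3a, featureCounts, DESeq2 and the build hg19. The deposited tables hold the authors' raw read counts per gene for 24 libraries, alike in all 4 tables, and per comparison the authors' log2 fold changes and p-values; 24 columns of normalized counts per table were not used. Tests covered genes that reached 10 counts in 3 or more libraries, and used DESeq2 1.42.0 in R 4.3.3 (Wald test, Benjamini-Hochberg adjustment over all genes tested). Alternatives were edgeR 4.0.16 (quasi-likelihood, TMM), TMM factors in DESeq2, no filter, a GC trend per library as an offset (lowess span 0.3, GC content of the longest GENCODE 29 transcript for 97.8% of tested genes), other sets of libraries, and each library left out. Only the DESeq2 fits as designed were run on simulated counts, which held no GC trend and no deviation shared by letter. The fits with the GC trend removed, with the block and in edgeR were not tested on simulated data.

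The members and the other gene lists were chosen with earlier results of these data known. Beyond the members, a listed gene was named if it was called and had a mean of at least 50 counts, and 5 genes of like pattern were taken by the r of log2(CPM + 0.5). KD and NTC libraries of the same setup and letter deviated together over all genes, with r from 0.331 (syn-gRNA C) to 0.961 (agoshRNA A) in 12 pairs. The block fits pair libraries by the columns' letters. The labels do not state this pairing, and it was not tested against pairs of different letters. Totals were 10994974 to 16233777 counts per library, and intervals cover the spread between libraries.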

Additional observations from a re-analysis of the deposited data

Results flagged for a closer look

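Same-letter differences of KD minus NTC in log2 CPM had opposite signs in a pair of setups for FDFT1 and for LSS. FDFT1 was at 0.17, 0.04 and 0.06 in gRNA (A, B, C) and at -0.03, -0.02 and -0.21 in pre-gRNA, a difference between the means of 0.175. LSS was at 0.23, 0.02 and 0.05 in agoshRNA and at -0.23, -0.23 and -0.01 in pre-gRNA, a difference between the means of 0.26. These same-letter contrasts were not tested; the interaction test in DESeq2 called neither gene.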

How the results depend on the processing

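For knockdown against control, with 0 genes called over the 4 setups, the replicate block by column letter gave 1 gene, the replicate block with the GC trend removed 1, and the fits without 1 library 0 to 1 (1 without syn-gRNA NTC A); members called were 0 in each of these paired and other fits, and interactions 0. For setups within the NTC arm, 1310 gene calls summed over 6 pairs became 4334 with the GC trend removed, 170 in edgeR, 2712 with only the 6 libraries of a pair, 10781 with both arms together, 17370 with both arms and the GC trend removed, and 181 to 1561 without 1 library (181 without syn-gRNA C, 211 without syn-gRNA B, 695 without pre-gRNA A). Member calls there, out of 48 tests in a fit of all libraries, went from 0 to 3, 0, 2, 2, 7 and 0 in that order. With both arms together the gene calls came from 20172 genes tested in each of the 6 pairs. In the KD arm 1478 became 4197, 417, 10781 and 17370 with the GC trend removed, in edgeR, with both arms and with both arms and GC, and 270 to 3320 without 1 library (270 without syn-gRNA C, 452 without syn-gRNA B, 3320 without agoshRNA B); member calls went from 0 to 2, 0, 2 and 7, and stayed 0 without 1 library. With only the 6 libraries of a pair, the NTC calls were HMGCS1 for gRNA (-1.03, DESeq2 adjusted p = 0.0291) and pre-gRNA (-1.58, adjusted p = 0.00147). These 2 fits called 1018 of 18609 and 1319 of 18709 genes. In the KD arm such fits called 0 members. They called 235, 442 and 723 genes for agoshRNA, gRNA and pre-gRNA against syn-gRNA. With both arms together, HMGCS1 (-1.43) and DHCR7 (0.79) were called for pre-gRNA, where 4393 of 20172 genes were called. With the GC trend also removed, 4 of the 8 members and 5981 of 20172 genes were called for pre-gRNA. Same-letter libraries are not independent, so the p-values with both arms together are too small. The median within-group SD of the members, 0.35, was 0.226 with the GC trend removed. Over the 24 libraries the SD of FDFT1 rose from 0.25 to 0.34, while that of the other members fell. No called result changed direction in these fits. The fits with GC removed together with another choice were chosen after seeing the data.

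The 8 genes had at least 184 counts in every library.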
